A study of Mus musculus with 8 samples.

Results

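The regions described here are 454 H3K27ac peaks off chromosome 5 that were at least 1.5-fold lower in Gata6 knockout than in control mouse colon cancer organoids, out of 22731 peaks in all and 20868 off chromosome 5. They were chosen from the measured values. Counts were expressed as CPM, reads per 1000000 reads in peaks of the same library. A member had a mean knockout level of at most the mean control level divided by 1.5, its highest knockout library below its lowest control library, and a mean over the 6 libraries of at least 10 CPM. Every difference between knockout and control at these peaks is therefore a description of that choice, with no test behind it.

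Control organoids carry the genotype AKP and knockout organoids the genotype Gata6KO_AKP, with 3 libraries of each, made by CUT&RUN. In this assay an antibody brings a nuclease to a chromatin mark, and the released DNA is sequenced. The labels do not spell out the AKP alleles, which both groups share. The recipient mice are labelled C57Bl6. Nothing in the labels says how Gata6 was removed, whether a line is 1 clone, or whether replicates came from separate cultures, so the spread between libraries may be technical. Of the 8 samples in the series, those for H3K4me3 and IgG were not used here.

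Acetylation of lysine 27 on histone H3 marks active promoters and enhancers, and runs of acetylated peaks along a gene are common where a gene is strongly used. GATA6 is a zinc finger transcription factor that binds short motifs with a GATA core, and it is known for its roles in the endoderm and the intestinal lining. In bulk organoids, less acetylation per cell and fewer acetylated cells cannot be told apart.

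The table names no genes. Its coordinates are on build mm9, for which no annotation or genome sequence was used here, so members are given by position. Gene names were set beside 28 members at 6 loci from general knowledge of where these genes lie on mm9 and from gene names already attached to earlier results of these data. These names were given after the positions and values had been seen, and with a gene table of another build (GRCm38.p6) at hand, of which only the chromosome is used. They were not checked against an mm9 annotation. A name does not say whether a peak covers a promoter, exon or intron, nor that the gene is the peak's target. The level at Gata6 itself and at marker genes of the colon epithelium was not analysed here, so the labels were not checked by them.

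The peaks' own sequences were not read. For 5 of the named genes, RefSeq (GRCm38.p6) gave 8 start sites, and the 250 bases before each were searched on both strands for AGATAA and TGATAA, forms of the GATA motif. One of the 8 windows (12.5%) held a match, against 16.6% of all 32851 windows of that length. The windows of the 3 genes with a single listed start are shown, as examples from loci with several members. They were picked after the matches had been seen, and the windows of Dock9 and Sulf2, which have several starts, are not shown. All are on the plus strand, and capitals mark the reverse complement or the forward form of the motif.
Ddah1: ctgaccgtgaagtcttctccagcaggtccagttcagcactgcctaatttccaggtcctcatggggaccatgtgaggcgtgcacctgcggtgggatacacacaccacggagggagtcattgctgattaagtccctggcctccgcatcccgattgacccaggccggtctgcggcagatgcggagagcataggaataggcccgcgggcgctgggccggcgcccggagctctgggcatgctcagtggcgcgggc
Nrp2: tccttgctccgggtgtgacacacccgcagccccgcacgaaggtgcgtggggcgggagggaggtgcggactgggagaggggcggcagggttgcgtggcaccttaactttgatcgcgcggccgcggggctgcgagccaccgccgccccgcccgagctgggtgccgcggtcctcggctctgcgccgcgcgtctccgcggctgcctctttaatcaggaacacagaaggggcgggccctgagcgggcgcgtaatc
Zbtb20: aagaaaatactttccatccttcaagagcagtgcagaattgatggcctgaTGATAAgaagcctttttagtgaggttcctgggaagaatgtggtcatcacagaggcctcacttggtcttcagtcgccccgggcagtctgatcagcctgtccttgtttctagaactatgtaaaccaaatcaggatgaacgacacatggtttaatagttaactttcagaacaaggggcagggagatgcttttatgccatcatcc
Zbtb20 has the match, and Ddah1 and Nrp2 show no capitals because these letters are not in their windows. A match is a description of letters, and whether a member covers any window was not determined.

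Members were few and mostly moderate in size. Of the peaks off chromosome 5, 20790 reached 10 CPM, 477 of these were 1.5-fold lower in the knockout, and 23 of the 477 dropped out because the groups overlapped. The 454 members made up 2.18% of peaks off chromosome 5. Turned round, for peaks at least 1.5-fold higher in the knockout, the rule took 1622 peaks (7.77%). Groups without overlap and with the knockout lower, whatever the size, were found at 13.1% of peaks.

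The median member was 1.68-fold lower, and the middle 50% of members lay between 1.58-fold and 1.87-fold. A difference of at least 2-fold was present at 71 members (15.6%), of at least 2.5-fold at 21 and of at least 3-fold at 6. Among the 1622 higher peaks the median was 1.80-fold, and 555 (34.2%) differed by at least 2-fold. With CPM over the library totals, lower peaks were thus both fewer and closer to the threshold than higher ones. The higher peaks were not counted again under other scalings.

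**Figure D1:**
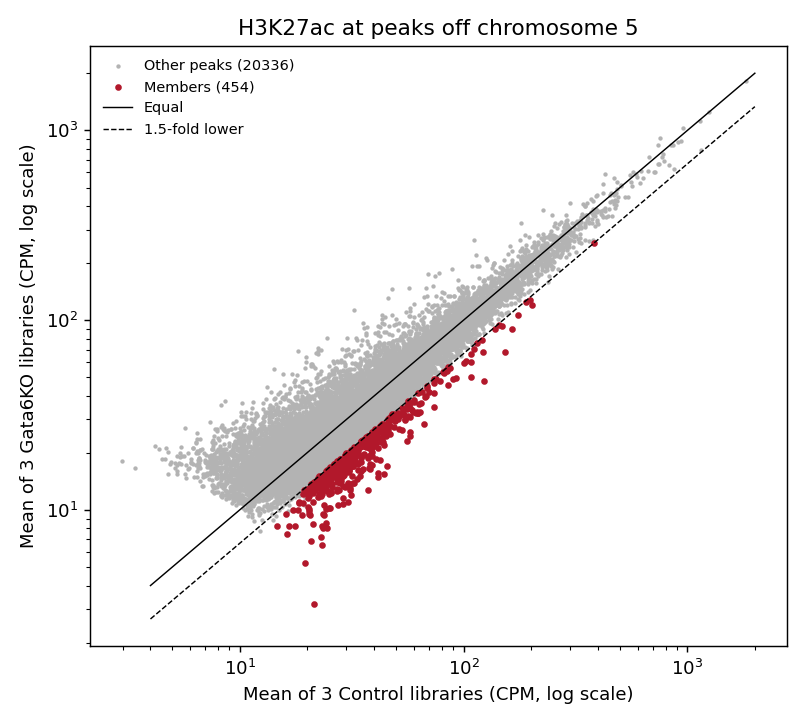
Mean H3K27ac of the 3 Gata6KO libraries against that of the 3 Control libraries (CPM, both axes on a log scale) for peaks of at least 10 CPM off chromosome 5; red points are members, grey points other peaks, the solid line equality and the dashed line a 1.5-fold lower level. Of the 454 members, 361 have control levels of 20 to 50 CPM, and most lie close under the dashed line.

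All 454 members were also called lower by edgeR's quasi-likelihood test over the whole table (Benjamini-Hochberg adjusted p under 0.05). The same call was made at 8.10% of peaks off chromosome 5. The members were chosen on this contrast, so nothing is read from the count. The median log2 ratio of knockout to control was -0.75 over members and 0.02 over all peaks off chromosome 5.

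Members were peaks of middle strength. Their control level had a median of 31.2 CPM, and 361 (79.5%) lay between 20 and 50 CPM, against 49.8% of all peaks off chromosome 5. The rule used the control level and favours peaks high in control, so this contrast in part restates the choice. By the mean over the 6 libraries, the median was 24.7 CPM for members and 27.4 CPM for all peaks off chromosome 5. At the strong end, 20 members (4.41%) reached 100 CPM in control, against 7.22% of all. In knockout libraries the median was 17.9 CPM, and 22 members were under 10 CPM. The median count over members was 164.5 to 226 reads in a control library and 99 to 115 in a knockout library.

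When the 20790 peaks were ranked by mean level into 10 equal classes, class 4 (up to 23.8 CPM) had the highest share of members, 3.61%. The share was 1.11% in the weakest class and 0.818% in the strongest. Higher peaks followed another course, from 19.7% of the weakest class to 2.45% of the strongest. The level entered the rule through the CPM minimum and through counting noise, whose part in these shares was not tested.

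Width did not enter the rule. The median member spanned 2634 bp, against 2675 bp for all peaks off chromosome 5 and 2328.5 bp for the higher peaks. In 10 equal classes by width, members numbered 26 in the narrowest, 63 in class 5 (3.03%) and 20 in the widest (0.962%). Members of at least 5 kb numbered 46 (10.1%), against 17.2% of all peaks, and 7 members (1.54%) reached 10 kb, against 4.19%. Wide peaks are also strong ones, so the classes by width and by level overlap.

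**Figure D2:**
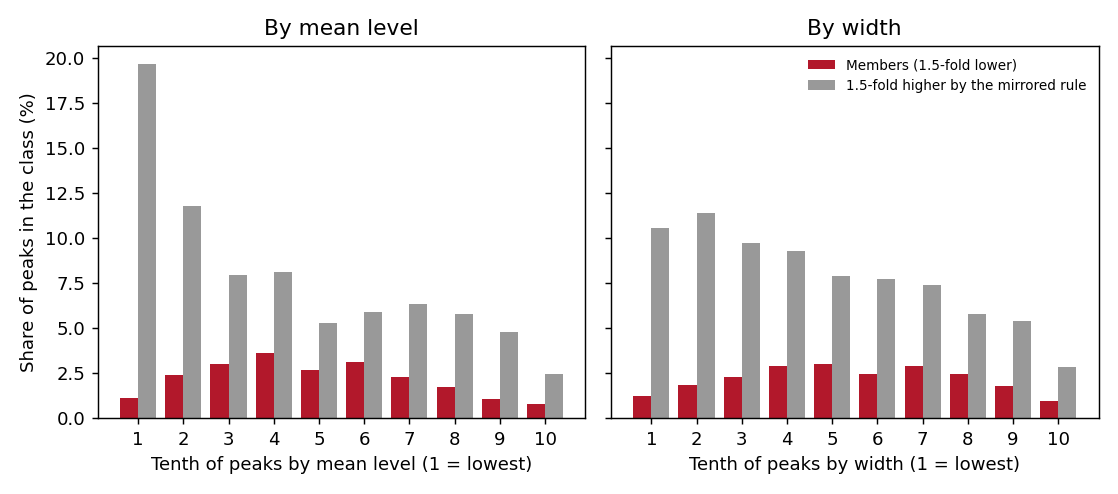
Share of peaks (percent) that are members (red) or 1.5-fold higher (grey) in 10 equal classes of the 20790 peaks, by mean level (left) and by width (right), from lowest to highest. Red bars are tallest in the middle classes, and grey bars on the left fall from 19.7% to 2.45%.

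Summed over the members, the libraries of a group were close to one another. Only peaks at which the groups did not overlap could be members, so this closeness in part restates the choice. The summed level of the members was 18339, 18204 and 18163 CPM in control replicates 1 to 3 and 10547, 10494 and 10683 CPM in knockout replicates 1 to 3. As a share of reads in peaks this was 1.82% ± 0.00924 in control and 1.06% ± 0.00975 in knockout (SD, n = 3 each). The libraries took turns at the bottom: each control library was the lowest of its group at 144 to 157 members, and each knockout library at 140 to 158.

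The coefficient of variation within a group had a median over members of 10.9% in control and 13.2% in knockout libraries, against 11% and 11.3% over all peaks off chromosome 5. Between the lowest control and the highest knockout library the median factor was 1.34. That factor was at least 1.5 at 111 members and at least 2 at 18. The rule keeps the lowest control library above the highest knockout library and so limits the spread within groups. These values are therefore descriptions of the choice. Members were also weaker in knockout libraries, with a median of 17.9 CPM against 27.7 CPM over all peaks off chromosome 5. The part of counting noise in the coefficients was not tested.

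The lowest ratio was found at chr13:40823149-40824284, a peak of 1136 bp. It held 20.6, 19.4 and 24.5 CPM in control replicates 1 to 3 and 4.18, 1.82 and 3.55 CPM in knockout replicates 1 to 3. In raw counts these are 119, 100 and 172 reads against 24, 10 and 22. The lowest control library was 4.65 times the highest knockout library, a gap that no other member reached. The means differed 6.76-fold, but the knockout values rest on few reads: the log2 ratio of -2.76 became -3.37 under a scaling that follows the mean level.

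The next in order were much less reduced. At chr3:60806175-60808020, control libraries held 17, 22.8 and 19.1 CPM and knockout libraries 6.97, 2.55 and 6.29 CPM, 3.72-fold lower. At chr12:112693389-112695310 the values were 17.7, 26.3 and 25.9 against 4.18, 5.46 and 10 CPM, 3.56-fold lower. In both, 1 knockout library lay apart from the other 2, on the low side in the first and on the high side in the second.

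A narrow peak of 462 bp, chr8:40238184-40238645, held 17.7, 27.6 and 23.9 CPM in control and 7.67, 6.91 and 7.10 CPM in knockout libraries, 3.19-fold lower. The member at chr1:43220156-43221964 had 21.2, 17.1 and 24.2 CPM against 6.97, 7.28 and 6.46 CPM, 3.02-fold lower. The knockout libraries lay close together at each of these peaks, and the control libraries were more spread.

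In the HoxA cluster, homeobox genes that set position along the body axis, the member chr6:52166870-52169735 was 2.86-fold lower. Its libraries were uneven in both groups, at 17, 22.6 and 30.7 CPM in control and 5.92, 8.01 and 10.7 CPM in knockout. It is the only member given this name, and other peaks of the cluster are not described. The peak chr10:114941496-114944513 was stronger, with 42.3, 35.8 and 34.7 CPM in control and 15, 12 and 11.3 CPM in knockout libraries, and 2.95-fold lower. Of the 15 lowest ratios, another 4 lay at positions with no gene name: chr18:21266589-21268246 (2.96-fold), chr2:103164609-103166458 (2.85-fold), chr15:79842249-79844770 (2.79-fold) and chr14:12936644-12938050 (2.71-fold). The remaining 4 belonged to runs of members at Ddah1, at Sulf2 and on chromosome 12, described below.

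**Figure D3:**
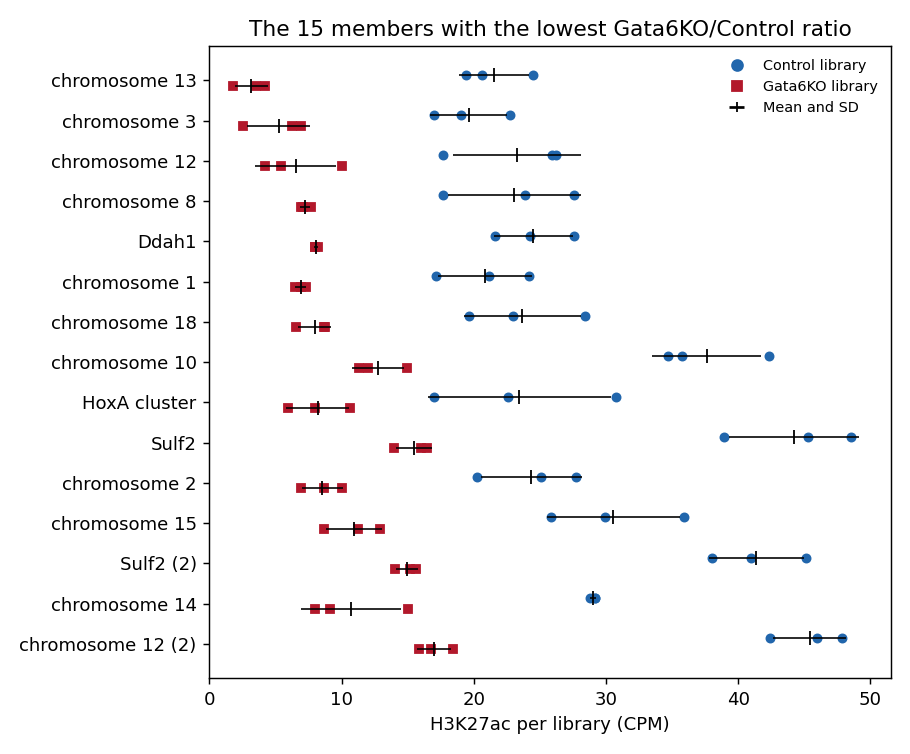
H3K27ac (CPM) in each Control library (blue circles) and each Gata6KO library (red squares) at the 15 members with the lowest ratio, in order; black bars are the mean and SD of 3 libraries, and rows carry a gene name or the chromosome, with a number for a repeat of the same name. The groups lie apart in each row, as the choice of members requires, and the first row has the lowest knockout values, 1.82 to 4.18 CPM.

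Members that followed each other within 1 Mb were joined into neighbourhoods. This gave 269 neighbourhoods, of which 179 held a single member, 44 held 2 and 46 held 3 or more. The 46 contained 187 members (41.2%), in spans with a median of 367 kb. Between these members lay 613 other peaks, of which edgeR called 99 lower (16.2%) and 29 higher (4.73%), beside 8.10% and 12.3% of all peaks off chromosome 5. Those shares of all peaks include the members, each of them called lower. A 1.5-fold higher peak lay in 8 of the 46 spans. The spans begin and end at members, so these shares are descriptions.

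Ddah1 had the most members. It encodes an enzyme that breaks down methylated arginines, which inhibit nitric oxide synthase. All 9 peaks of chr3:145421197-145560409, a span of 139 kb, were members, and their sum was 249, 277 and 274 CPM in control and 144, 139 and 135 CPM in knockout libraries. This span, too, begins and ends at members, and the peaks beyond it are not described. The first peak, chr3:145421197-145422765, was the most reduced, with 24.3, 27.6 and 21.6 CPM in control and 8.02, 8.01 and 8.23 CPM in knockout libraries, 3.03-fold lower. The last, chr3:145557990-145560409, was the least reduced, at 1.61-fold. Its control libraries were uneven, at 18, 19.1 and 28.7 CPM, and the lowest of them was only 1.18 times the highest knockout library.

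Dock9 encodes an activator of the small GTPase Cdc42, which organises the actin cytoskeleton. At this locus 6 of the 7 peaks of chr14:122015876-122098722 were members, 1.53-fold to 2.34-fold lower. This stretch was cut to begin and end at members. The next peaks on either side were not members, with log2 ratios of 0.28 (chr14:121821341-121823500) and -0.48 (chr14:122160052-122163938). The most reduced member, chr14:122081737-122087165, held 70.9, 66.5 and 63.1 CPM in control and 25.8, 32.7 and 27.1 CPM in knockout libraries. The least reduced, chr14:122033906-122037224, went from 28.5 ± 1.43 to 18.6 ± 2.92 CPM (SD, n = 3 each). Its whole neighbourhood spanned 969 kb with 8 members among 61 peaks, and the sum over all 61 was 1.15-fold lower, and the other peaks had a median log2 ratio of -0.13.

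Sulf2 encodes an enzyme outside the cell that removes sulfate groups from heparan sulfate, a sugar chain that binds growth factors. The 4 peaks of chr2:165910605-165950497 were all members, 2.12-fold to 2.86-fold lower. This stretch was cut to begin and end at members. The peak before it, chr2:165888486-165890699, was not a member and had a log2 ratio of -0.23. At chr2:165915453-165919446, control libraries held 48.6, 38.9 and 45.3 CPM and knockout libraries 13.9, 16 and 16.5 CPM. The neighbouring chr2:165910605-165913195 was nearly as low, at 41.4 ± 3.59 in control and 14.9 ± 0.843 CPM in knockout libraries. Its neighbourhood reached over 1564 kb and took in 3 distant members, the least reduced 1.55-fold lower, and the sum over its 36 peaks was 1.06-fold lower.

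Nrp2 encodes a co-receptor for semaphorins and vascular endothelial growth factors. Its 5 members lay among 9 peaks of chr1:62750547-62819440, and the 4 others were called lower by edgeR. Among those others, chr1:62774457-62775994 was 1.81-fold lower (19.3 ± 5.05 to 10.6 ± 3.8 CPM), more than any member, but its groups overlapped. The members were alike in size, 1.52-fold to 1.69-fold lower, and summed to 368, 372 and 353 CPM in control and 237, 230.4 and 229.6 CPM in knockout libraries. The most reduced member, chr1:62769771-62772583, held 53.8, 46.9 and 47.8 CPM in control and 28.2, 29.5 and 30.3 CPM in knockout libraries. Mean acetylation was thus lower at each of the 9 peaks of the Nrp2 stretch. The sum over its members was 1.57-fold lower, against 1.91-fold at Ddah1, while the factors of single peaks at the 2 loci overlapped.

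Zbtb20 encodes a zinc finger repressor of transcription. It was picked after its values had been seen, outside the rule for named peaks. Its 3 members, chr16:43582646-43627195, were 1.82-fold to 2.65-fold lower, and they were all the peaks of that stretch. The stretch was cut to begin and end at these members, and other peaks near Zbtb20 are not described.

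The highest summed level of the 15 neighbourhoods with the most members was on chromosome 12. Ties at 4 members were settled by the larger summed loss in CPM, so only some of the 6 neighbourhoods of that size are among the 15. The 7 members of chr12:103498908-103877974 summed to 913, 874 and 878 CPM in control and 556, 539.5 and 558 CPM in knockout libraries, and 9 of the 11 other peaks there were called lower. The span held the widest member, 22003 bp at chr12:103814062-103836064, with 396, 376 and 379 CPM in control and 255.5, 255.8 and 253 CPM in knockout libraries. At 1.51-fold it was just past the threshold, yet the groups were far apart for their spread. Another wide peak, chr12:103570509-103584686 (14178 bp), was 1.68-fold lower, and the most reduced member of the span, chr12:103498908-103502490, was 2.01-fold lower.

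A second neighbourhood of chromosome 12, chr12:112590075-112944342, held 6 members among 12 peaks and was 2.23-fold lower in its members' sum. Besides the peak that was 3.56-fold lower, it held chr12:112684963-112689031, with 46, 42.4 and 47.8 CPM in control and 15.9, 16.7 and 18.4 CPM in knockout libraries, 2.67-fold lower. A stronger peak, chr12:112665416-112671692, held 134, 152 and 174 CPM in control and 60.5, 73.5 and 69.1 CPM in knockout libraries, 2.27-fold lower. The least reduced was chr12:112942527-112944342, at 1.62-fold.

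On chromosome 16, 8 of the 14 peaks of chr16:90770650-91012126 were members. They summed to 478, 450 and 446 CPM in control and 252, 279 and 255 CPM in knockout libraries. The most reduced, chr16:90884870-90887290, had 66.2, 48.2 and 52.5 CPM against 21.3, 30.6 and 17.6 CPM, 2.41-fold lower but with spread-out libraries. The least reduced was also the strongest, chr16:90770650-90781999, which went from 191 ± 2 to 125 ± 2.52 CPM. One of the 6 other peaks was called lower, and their median log2 ratio was -0.24.

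In 3 further neighbourhoods of the 15 the members were all the peaks between the first and the last. At chr3:86934693-86966201, 4 members summed to 226, 184 and 201 CPM in control and 83.3, 85.5 and 78.4 CPM in knockout libraries, 2.47-fold lower and the largest ratio of the 15. One peak, chr3:86953007-86958710, made up most of this sum, with 136, 112 and 124 CPM against 48.1, 49.5 and 45.8 CPM. The least reduced of the 4, chr3:86964178-86966201, was 2.02-fold lower on uneven control libraries of 13.2 to 27.1 CPM.

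The 4 members of chr8:97623121-97669111 were alike in size, from 2.15-fold at chr8:97623121-97631721 to 2.36-fold at chr8:97665346-97669111. They summed to 234, 227 and 256 CPM in control and 111, 102 and 108 CPM in knockout libraries. The 5 members of chr9:27116924-27156570 differed more, from 2.29-fold at chr9:27116924-27120267 to 1.56-fold at chr9:27139548-27144018. Both stretches are short, at 46 and 39.6 kb.

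Of the other 5 of the 15, the span chr7:151789290-151938726 held 5 members among 13 peaks, and 5 of the 8 others were called lower and 1 higher. Its last peak, chr7:151926793-151938726, held 159, 165 and 168 CPM in control and 85.7, 86.3 and 97 CPM in knockout libraries, 1.83-fold lower, and the least reduced, chr7:151847238-151852837, was 1.64-fold lower. At chr2:26812366-27186072, 6 members among 11 peaks ran from 1.51-fold (chr2:27121699-27131178) to 1.99-fold (chr2:27145812-27150555). No other peak of that span was called in either direction.

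On chromosome 10, 6 members of chr10:75727036-76610722 lay among 38 peaks. The most and the least reduced were side by side, chr10:75729609-75731468 at 1.89-fold and chr10:75727036-75729423 at 1.59-fold. The 5 members of chr13:56180968-56566636 were 1.57-fold (chr13:56204069-56207962) to 1.76-fold lower (chr13:56232938-56234989). The 5 members of chr15:101054314-101184259 were 1.59-fold (chr15:101116488-101119445) to 1.90-fold lower (chr15:101146833-101148500). None of the members in these 3 neighbourhoods reached 2-fold.

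**Figure D4:**
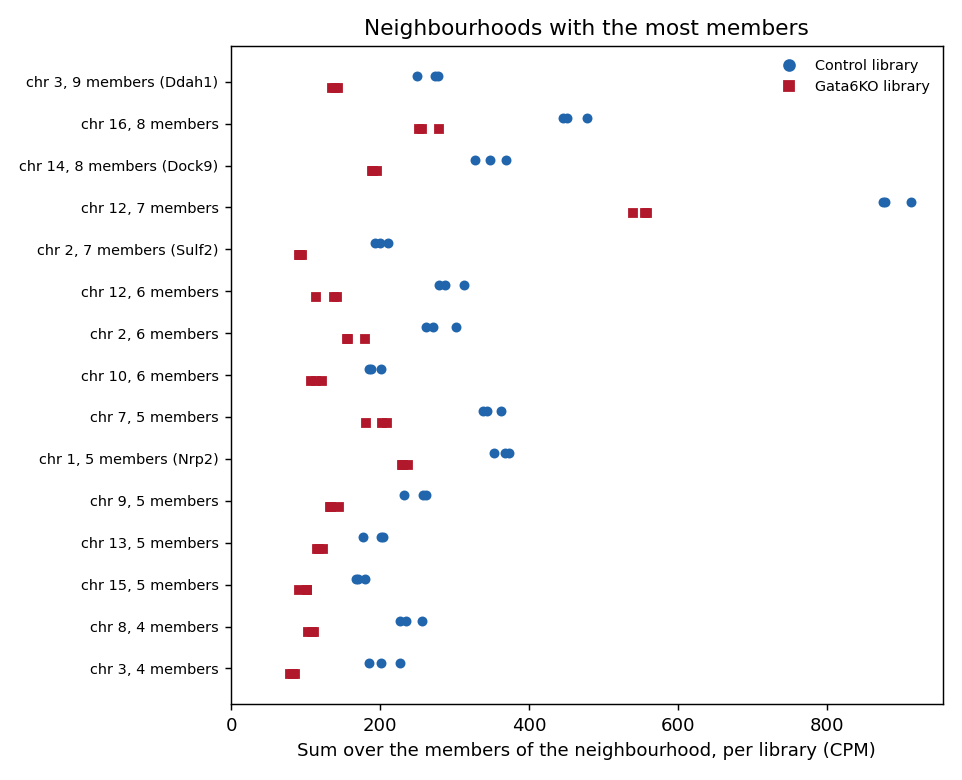
Sum of H3K27ac over the members of a neighbourhood (CPM) in each Control library (blue circles) and each Gata6KO library (red squares) for the 15 neighbourhoods with the most members; row labels give the chromosome, the number of members and, where set, a gene. A row sums its whole neighbourhood, also where a gene is set. The Dock9 row has 8 members, 6 of them at the locus, and the Sulf2 row has 7, 4 of them at the locus. The chromosome 12 row with 7 members has the highest sums, 874 to 913 CPM in control, and the last row the largest ratio, 2.47-fold.

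**Figure D5:**
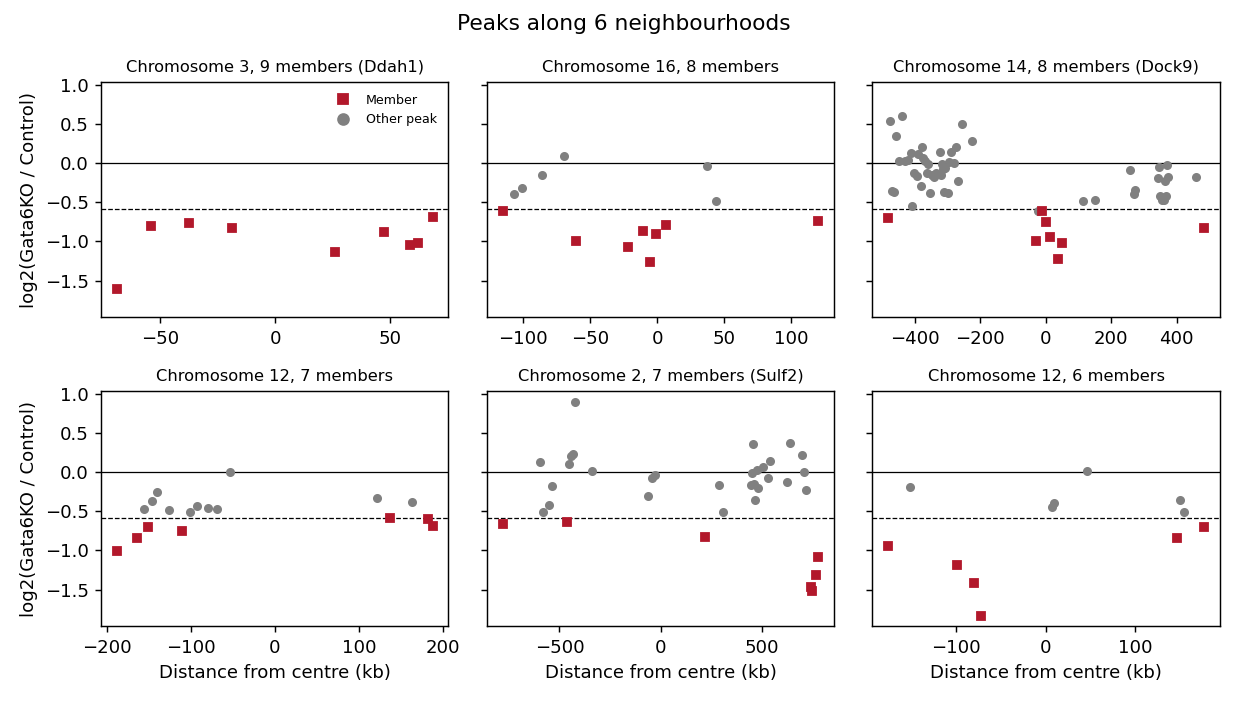
Log2 ratio of mean Gata6KO to mean Control H3K27ac at each peak of the 6 neighbourhoods with the most members, against distance from the middle of the neighbourhood (kb); red squares are members, grey circles other peaks, the solid line no difference and the dashed line a 1.5-fold lower level. Each panel begins and ends at a member. The Ddah1 panel holds its 9 members and no other peak. In the Dock9 and Sulf2 panels, where only some of the members lie at the named locus, a tight run of members lies under other peaks. The median log2 ratios of those other peaks are -0.13 and -0.03.

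Members lay near one another and away from higher peaks, and higher peaks did likewise. Within 100 kb, 182 members (40.1%) had another member, while 9.44% of the 18714 other peaks of at least 10 CPM off chromosome 5 had a member that near. A 1.5-fold higher peak lay within 100 kb of 44 members (9.69%), against 24.8% of those other peaks. Among the 1622 higher peaks, 60.0% had another higher peak within 100 kb and 3.08% had a member that near. Peaks of any kind were somewhat sparser around members, with one within 10 kb of 58.1% of members and of 70.8% of the others. Peaks of 1 locus share their surroundings, and these shares are descriptions.

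Peaks next to members tended the same way without meeting the rule. Members had 718 direct neighbours that were not members, and 496 of these (69.1%) had a log2 ratio under 0, against 47.0% of all peaks off chromosome 5. Their median log2 ratio was -0.14. Of the 718, edgeR called 148 lower (20.6%) and 42 higher (5.85%), beside 8.10% and 12.3% off chromosome 5. The shares off chromosome 5 count the members too, all of them lower by choice.

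Members made up 0.735% to 3.99% of the peaks of a chromosome. Chromosome 12 had the highest share, with 37 members among 927 peaks, followed by chromosome 16 with 3.43% and chromosome 3 with 3.23%. The lowest share on an autosome was 1.43%, on chromosome 8, and X held 1 member among 136 peaks.

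In CPM, the largest losses were at strong peaks. Of the 10 largest, 3 were over 2-fold, the peaks of 2.27-fold on chromosome 12, 2.59-fold on chromosome 3 and 2.15-fold on chromosome 8 given above. Those not yet described were chr11:3800844-3814964 (199 ± 9.8 to 128 ± 9.85 CPM), chr19:37349129-37358543 (175 ± 4.98 to 106 ± 11.7 CPM) and chr9:69893103-69901108 (148 ± 14.7 to 93.4 ± 4.35 CPM). Among the 5 widest members, chr11:114562798-114577168 (14371 bp) went from 145 ± 12.2 to 94.3 ± 7.16 CPM (SD, n = 3 each). Loss in CPM and ratio thus ordered the members differently, and no peak was among both the 10 largest losses and the 15 lowest ratios.

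The threshold fell within a continuum. The members nearest to it were chr18:67474166-67477238, chr12:17006598-17008234 and chr18:76465981-76467898, at 1.5008-fold, 1.5011-fold and 1.5013-fold. The first held 27.7, 28 and 28.2 CPM in control and 17.1, 15.3 and 23.6 CPM in knockout libraries. Just outside were chr8:13675442-13678026, chr2:24999015-25005709 and chr16:87723672-87725875, at 1.49998-fold, 1.4998-fold and 1.4996-fold. The first of these held 20.1, 17.7 and 23.6 CPM in control and 13.1, 14 and 13.9 CPM in knockout libraries.

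Reads in peaks ranged from 5141856 to 7026388 per library. Across peaks, log2 CPM correlated at 0.947 to 0.961 within groups and 0.897 to 0.904 between them (Pearson's r, over peaks that are not independent), and the libraries of a group differed by more than sampling noise. The CPM totals include chromosome 5. With that chromosome left out of the totals, the rule took 514 peaks, among them all 454 members.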

How the data were processed

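The authors deposited whole-number read counts over 1 peak set for the 6 H3K27ac libraries, with no normalization. The submitters' processing notes name build mm9 and the tools Bowtie, Picard, SAMtools, SEACR and bedtools, without versions or roles. No source used here says how peaks were merged or which program counted.

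Groups followed the sample labels. Counts were divided by library totals to CPM, the rule was applied, and members were joined over gaps of at most 1 Mb. The members, loci and lists were chosen with earlier results of these data known. Calls came from edgeR 4.0.16 in R 4.3.3 (TMM, quasi-likelihood fit on group, two-sided, Benjamini-Hochberg adjustment over the table), a script tested on simulated data. The text names the 15 lowest ratios, the 10 largest losses in CPM, the 5 widest members, the extremes of the 15 neighbourhoods with the most members and 3 peaks on each side of the threshold. Neighbourhoods with equal numbers of members were ranked by summed loss in CPM. Gene names come from general knowledge and from names attached to earlier results of these data, and are unchecked on mm9. Names that rested on comparing positions across builds are left out. Alternatives were DESeq2 1.42.0, other scalings and thresholds, a replicate block and leaving out single libraries.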

Additional observations from a re-analysis of the deposited data

How the results depend on the processing

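With other scalings the rule took 486 peaks (TMM), 486 (DESeq2 size factors), 514 (totals without chromosome 5) and 633 (a trend over mean level removed, chosen after seeing the data). The first 3 held all 454 members and the last held 453. A threshold of 2-fold took 71 peaks (median log2 ratio -1.19, 6 neighbourhoods of 3 or more members, median width 2426 bp), a control mean 25% above the knockout took 1617 (-0.48, 207 and 2897 bp), and a minimum of 20 CPM took 348 (-0.72 and 2982.5 bp). The trended scaling gave a median width of 2386 bp, and gaps of at most 250 kb gave 30 neighbourhoods in place of 46. Leaving out each library in turn, the rule took 520 to 611 peaks, with a median log2 ratio of -0.74 to -0.72, a median width of 2482 to 2605 bp and 49 to 68 neighbourhoods. These selections shared 390 to 407 of the 454 members, and edgeR called 407 to 437 members lower. The causes of these shifts were not tested, apart from the construction of each threshold.

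Deviations of libraries with the same number correlated at 0.00601 to 0.0661, and those of other pairs at -0.0484 to 0.04, so the numbers were not taken as pairs. With the number as a replicate block, edgeR called 452 members and 1767 peaks off chromosome 5 lower, in place of 454 and 1690. DESeq2 called 451 members lower. Of 480 values of 48 named members under 10 alternatives each, 473 moved by less than 1 SD and none rose above 0. In a member every knockout library lies below every control library, so leaving out a library could not bring a ratio above 0. With 3 libraries per group it could also hardly move a ratio by 1 SD, so little is read from these counts. The values that moved by more came from the trended scaling, apart from chr16:90770650-90781999 with totals without chromosome 5. The lowest ratio rests on 10 to 24 reads per knockout library.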
